A study of Rattus norvegicus with 6 samples.

Results

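The genes described here are those of the interferon response and of antigen presentation in the rat left atrium, a list of 36 genes chosen by name. Of these, 35 carried a probe set under their symbol alone and passed the filter on low signal, among 11237 genes measured in all, and each was read by 1 probe set. Nlrc5, the transactivator of class I genes, had no probe set under its symbol alone and was not analysed here. The list was divided by role into 16 antiviral effectors and factors of the type I interferon response, 7 genes of the IRF1 arm (Irf1, Irf8, Socs1, Gbp2 and 3 ligands of the chemokine receptor Cxcr3), 7 genes of class I processing and 5 class II genes. IRF1 arm is a short name for a mixed list and does not mean that IRF1 drives each of its genes.

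The tissue came from adult male Sprague-Dawley rats, an outbred strain. In 3 rats the atria underwent rapid atrial pacing (RAP) at a cycle length of 70 ms for 48 hours, and in 3 rats control pacing at 140 ms for the same time. All rats had a pacing electrode implanted surgically on the right atrium, drank water with atenolol (a beta-blocker that slows conduction to the ventricles) and received heparin before sacrifice, so that the surgery, the drugs and the ventricular rate were shared by both groups. Each RAP rat had a control that went through surgery, recovery and pacing beside it, and the arrays are called RAP 1 to 3 and control 1 to 3 by these pairs. Whole left atria, which hold muscle, vessels, fibroblasts and immune cells together, were hybridized to 1 GeneChip Rat Gene 1.0 ST array per rat, and only pairs whose RNA was of sufficient quality reached the arrays.

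Interferons bind receptors whose JAK kinases phosphorylate STAT proteins. Type I interferons lead to a complex that holds STAT2 and IRF9 on the interferon-stimulated response element (ISRE) of antiviral genes, whereas interferon gamma acts through the gamma-activated site and through IRF1, which in turn drives class I processing and, through CIITA, class II genes. Class I molecules present peptides cut by the immunoproteasome and carried by the TAP transporter, and nearly every nucleated cell makes them. Class II molecules are made mainly by macrophages, dendritic cells and B cells, where the invariant chain Cd74 guides them. In the rat, the major histocompatibility complex is called RT1.

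Promoters of 30 of the 36 genes were found in the RefSeq promoter table (GRCr8, 250 bases before to 50 after each start). The ISRE core, here GAAA followed after any 2 bases by GAAA again, searched on both strands, was present in 16 of these 30 (53.3%), against 1312 of all 33469 promoters of the same length (3.92%). By role it was found in 7 of 12 promoters of antiviral genes, in 3 of 7 of the IRF1 arm, in 6 of 7 of class I processing and in 0 of 4 of class II genes. The stretches below show this element in some of these genes, 5′ to 3′ on the strand of the gene. Capitals mark the match. TTTC in capitals is the core read on the opposite strand, and a run of GAAA repeated 3 times holds a pair of overlapping cores.
Irf7, chr1:205800063-205800112, minus strand: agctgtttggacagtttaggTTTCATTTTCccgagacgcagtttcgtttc
Rsad2, chr6:48788238-48788287, minus strand: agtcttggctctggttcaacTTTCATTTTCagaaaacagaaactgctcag
Bst2, chr16:18255063-18255118, minus strand: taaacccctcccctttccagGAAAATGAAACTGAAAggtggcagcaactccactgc
Oas1a, chr12:41330405-41330460, plus strand: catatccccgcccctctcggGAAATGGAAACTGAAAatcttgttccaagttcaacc
Gbp2, chr2:234005676-234005725, plus strand: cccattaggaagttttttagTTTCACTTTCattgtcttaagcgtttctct
Tapbp, chr20:4967878-4967923, minus strand: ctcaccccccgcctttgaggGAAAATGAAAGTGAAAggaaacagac
Tap1, chr20:4668635-4668684, minus strand: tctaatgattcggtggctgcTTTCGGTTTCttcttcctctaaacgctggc
B2m, chr3:129549160-129549209, plus strand: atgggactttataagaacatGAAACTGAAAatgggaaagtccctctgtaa

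The matches of Bst2 and Tapbp lay 131 to 116 and 26 to 11 bases before the start, and that of Gbp2 31 to 22 bases before it. The longer repeat of 3 GAAA, each 2 bases from the next, was present in 4 of the 30 promoters (Oas1a, Bst2, Tapbp and Socs1), against 37 of 33469 (0.111%). The gamma-activated site TTCNNNGAA was present in 9 of the 30 promoters, against 2970 of all promoters (8.87%). Of those 9, 5 belonged to the 7 genes of the IRF1 arm (Irf1, Irf8, Cxcl9, Cxcl11 and Socs1), 3 to antiviral genes and 1 to class I processing (Psmb8), while the 4 class II promoters held 0. A match describes the letters of the window, not binding by a factor.

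The 6 arrays had median log2 signals of 5.82 to 5.85, and the atrial muscle markers Myl7 and Nppa were near the top of the scale on all of them, at 13.6 to 13.8 and 13.4 to 13.6. A pair of arrays stood apart. Control 3 carried ventricular Myl2 at 8.60, against 4.28 to 4.89 on the other arrays, and the summed signal of 5 erythroid markers was 54.9 there, against 40.0 to 43.2 in the RAP atria and 39.3 to 42.6 in the other control atria. Control 2 had the highest summed signal of 19 macrophage markers, 180.9, against 148.9 to 165.5 in the RAP atria and 152.3 to 162.9 in the other control atria. In whole tissue, fewer cells of a type and less RNA per cell cannot be told apart.

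None of the 35 genes rose or fell with RAP. A gene is said to rise or fall when limma, with the pair as a block, gave an unadjusted p below 0.05 together with more than a 1.3-fold change, the thresholds of the study's methods. The counts were 0 of 35 risen and 0 of 35 fallen, against 2.87% risen and 3.28% fallen among all genes. No member had an unadjusted p under 0.05 (6.59% of all genes did), the smallest was 0.054 (Tapbp), and the smallest adjusted p over all genes was 0.723. The methods' t-test also called 0 of the 35 (risen, 1.06% of all genes, and fallen, 1.02%). The median log2 change (RAP minus control) of the members was -0.21, against -0.01 over all genes, with 5 members above 0 and 30 below.

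The members were nevertheless far from constant between rats. The range of a gene over the 6 arrays was 1.25 log2 units at the median of the members, against 0.56 over all genes, and it exceeded 1 in 23 of 35 members (18.5% of all genes). RAP 2 held the lowest value of 26 of the 35 members (25.2% of all genes), control 2 the highest of 17 (19.2%) and RAP 3 the highest of 10 (19.6%). RAP atria were higher than their controls in 13 of the 35 genes in pair 1 (49.7% of all genes), in 2 in pair 2 (48.1%) and in 29 in pair 3 (51.7%). The sign of the difference therefore depended on the pair, and the roles differed in how they divided over the pairs.

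**Figure D1:**
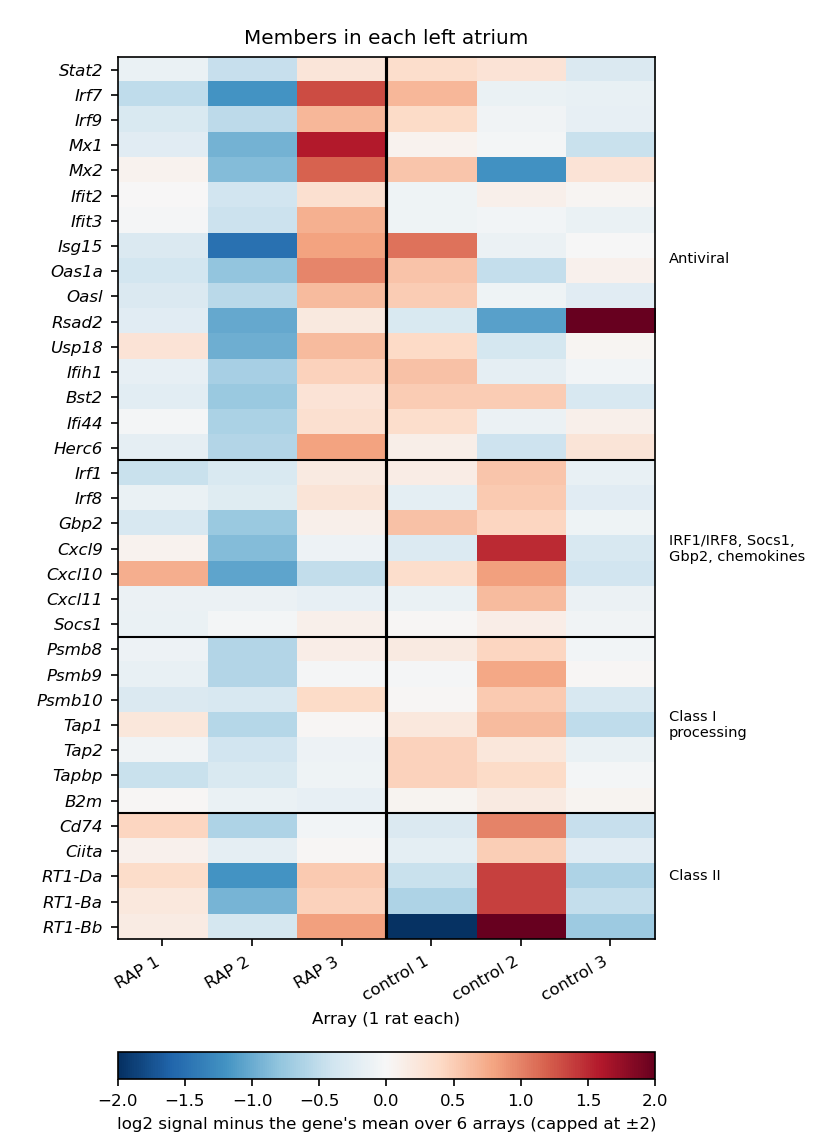
Heat map of the 35 measured genes (rows, by role) on the 6 arrays (columns, RAP 1 to 3 and then control 1 to 3), coloured by the log2 signal minus the gene's mean over the 6 arrays and capped at 2 units either way. RAP 3 stands out as high in the antiviral rows, control 2 as high in the class II rows, and RAP 2 as low in 26 of 35 rows.

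Antiviral genes had a median change of -0.13 with RAP, and 0 of 16 rose or fell. In pairs 1 and 2 most were lower with RAP (13 and 14 of 16, against 50.3% and 51.8% of all genes, medians -0.49 in both), and in pair 3 15 of 16 were higher (median 0.70). The order lower, lower, higher over pairs 1 to 3 was seen in 12 of the 16, against 21.7% of all genes. Isg15, a ubiquitin-like protein joined to other proteins during the antiviral response, had log2 signals of 7.95, 6.74 and 9.04 in the RAP atria, against 9.33, 8.12 and 8.22 in the control atria. RAP 2 was the lowest and control 1 the highest array, RAP 3 lay above controls 2 and 3, and the groups overlapped. Its change was -0.65 ± 0.49 (SE, 95% interval -1.94 to 0.64, adjusted p = 0.792), with pair differences of -1.37, -1.38 and 0.82.

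Bst2 (tetherin, which holds budding virus at the cell surface) gave the strongest signal of these genes, 9.67, 9.15 and 10.15 in the RAP atria, against 10.39, 10.40 and 9.56 in the control atria. RAP was lower in pairs 1 and 2 and higher in pair 3, and the groups overlapped. The change was -0.46 ± 0.38 (SE, adjusted p = 0.798). Stat2, a subunit of the factor that binds the ISRE, had 8.08, 7.75 and 8.46 in the RAP atria, against 8.57, 8.48 and 7.91 in the control atria, the same order over the pairs on a smaller scale (change -0.22 ± 0.28, SE, adjusted p = 0.864).

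Irf7, the factor that amplifies type I interferon production, and Mx1, a GTPase that blocks influenza virus, were chosen after their values were seen, because they show the split most clearly. Irf7 had 7.52, 6.83 and 9.33 in the RAP atria, against 8.68, 7.89 and 7.87 in the control atria, with pair differences of -1.16, -1.06 and 1.46. Mx1 had 5.63, 4.90 and 7.44 in the RAP atria, against 5.92, 5.80 and 5.40 in the control atria. RAP 3 was the highest array for both genes and RAP 2 the lowest, so that the control values of Mx1 lay inside the range of the RAP values. The changes over the pairs were -0.25 ± 0.57 for Irf7 and 0.28 ± 0.60 for Mx1 (SE, adjusted p = 0.927 and 0.922).

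Rsad2 (viperin, an enzyme that makes a chain-terminating nucleotide) went against its class. Its signals were 6.37, 5.58 and 6.79 in the RAP atria, against 6.28, 5.51 and 9.03 in the control atria. Control 3 alone was high, by more than 2 units, and pairs 1 and 2 differed by only 0.08 and 0.06. The change of -0.69 ± 0.52 (SE, adjusted p = 0.792), the largest of the class in size, was 0.35 without control 3. Cmpk2, the neighbouring gene on the chromosome, which makes the nucleotide that Rsad2 uses, was also highest in control 3, with 6.75, 6.20 and 6.65 in the RAP atria, against 6.69, 6.40 and 7.59 in the control atria (chosen after its values were seen). Control 3 was the array with high erythroid and ventricular markers, and their part in these values was not tested.

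The other antiviral genes were Irf9 (which gives the ISRE factor its DNA contact), Mx2 (a GTPase related to Mx1), Ifit2 and Ifit3 (which bind foreign RNA), Oas1a and Oasl (of the oligoadenylate synthetase family), Usp18 (which removes Isg15 from proteins), Ifih1 (the RNA sensor MDA5), Ifi44 and Herc6. Their changes ran between -0.24 (Ifih1) and 0.26 (Mx2). All 10 were higher with RAP in pair 3, and all but Mx2, which was lowest in control 2, had their lowest value in RAP 2. Over all antiviral genes, 15 of 16 were higher in RAP 3 than in control 3, against 51.7% of all genes. Rsad2, the exception, was set aside after its values were seen, and the other 15 were higher by 0.22 to 2.04 (median 0.82). These differences come from 1 pair of rats. Without pair 3, 10 of the 16 fell with RAP, among 16 of the 35 members, against 12.5% of all genes, so that pair 3 decided whether these genes were called.

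The IRF1 arm had a median change of -0.38, with 7 of 7 changes below 0 and 0 past the thresholds. Gbp2, an interferon-induced GTPase that attacks the membranes around intracellular microbes, had 8.10, 7.68 and 8.52 in the RAP atria, against 9.01, 8.85 and 8.34 in the control atria. RAP was lower in pairs 1 and 2 and slightly higher in pair 3 (-0.90, -1.17 and 0.19), and the groups overlapped only through RAP 3 and control 3. The change was -0.63 ± 0.30 (SE, 95% interval -1.41 to 0.15, adjusted p = 0.727). Without the pair as a block Gbp2 passed the thresholds, at an unadjusted p of 0.0485 (with Tapbp, 2 of 35 members fell, against 4.1% of all genes).

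Irf1, the factor that carries the interferon gamma signal to class I and class II genes, had 6.83, 6.96 and 7.44 in the RAP atria, against 7.42, 7.82 and 7.12 in the control atria (change -0.38 ± 0.27, SE, adjusted p = 0.783). Irf8, a factor of the monocyte and dendritic cell lineage, had 6.86, 6.76 and 7.26 in the RAP atria, against 6.81, 7.53 and 6.78 in the control atria (change -0.08 ± 0.27, SE, adjusted p = 0.953). Control 2 was the highest array for both, and the groups overlapped. Socs1, an inhibitor of JAK kinases, varied least of all members, with a range of 0.27 over the 6 arrays and a change of -0.05.

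The chemokines Cxcl9, Cxcl10 and Cxcl11, which draw T cells through Cxcr3 and are neighbours on 1 chromosome, differed most in pair 2. Cxcl9 had 5.70, 4.76 and 5.51 in the RAP atria, against 5.36, 7.12 and 5.30 in the control atria, and its pair differences were 0.34, -2.36 and 0.21. Control 2 was the highest and RAP 2 the lowest array, and the change of -0.60 ± 0.59 (SE, adjusted p = 0.827) was -0.01 without control 2. Cxcl10 had 7.40, 5.62 and 6.18 in the RAP atria, against 7.02, 7.49 and 6.28 in the control atria, again with a large difference in pair 2 only (0.37, -1.88 and -0.11, change -0.54 ± 0.46, SE, adjusted p = 0.803). Without RAP 1 and the pair block it passed the thresholds, at -1.04. Cxcl11 was dim, at 5.07 to 5.12 in the RAP atria and 5.10 to 5.86 in the control atria, where control 2 was again the highest.

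Beside the chemokines, the 12 measured markers of T and NK cells had a summed signal of 75.0 to 78.1 in the RAP atria, against 71.7 to 84.9 in the control atria, where control 2 was the highest. Ncr1 and Gzma of that list stayed under a log2 signal of 5 on every array. Cd3g, a chain of the T cell receptor complex, had 8.11, 7.02 and 6.64 in the RAP atria, against 6.09, 8.55 and 6.33 in the control atria. Its range (2.46) was the widest of that list, so that it does not stand for the others. Of the 12 markers, 10 were higher with RAP in pair 1, 3 in pair 2 and 7 in pair 3. Among all genes these shares were 49.7%, 48.1% and 51.7%. The part of these cells in the chemokine values was not tested.

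Class I processing had the narrowest range of the 4 roles, 0.91 log2 units over the 6 arrays at its median, and a median change of -0.37, with 7 of 7 changes below 0 and 0 past the thresholds. Tapbp (tapasin, which bridges the TAP transporter and class I molecules) had 8.34, 8.49 and 8.70 in the RAP atria, against 9.25, 9.17 and 8.74 in the control atria. All RAP arrays lay below all control arrays, although RAP 3 and control 3 differed by only 0.04. The change was -0.54 ± 0.21 (SE, 95% interval -1.10 to 0.01, unadjusted p = 0.054, adjusted p = 0.723 by limma). It passed the thresholds without the pair as a block (unadjusted p = 0.0185), so that whether Tapbp is called depends on the treatment of the pairs.

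B2m, the constant light chain of class I molecules, was the brightest member, at 12.88, 12.72 and 12.69 in the RAP atria, against 12.91, 13.04 and 12.91 in the control atria. The groups did not overlap, but the change was small, -0.19 ± 0.14 (SE, 95% interval -0.56 to 0.17, adjusted p = 0.788). Psmb9, a catalytic subunit of the immunoproteasome, had 8.12, 7.69 and 8.24 in the RAP atria, against 8.25, 9.04 and 8.29 in the control atria. RAP 3 and control 1 nearly met, pair 2 carried most of the difference (-0.13, -1.35 and -0.04), and the change was -0.51 ± 0.30 (SE, adjusted p = 0.746). Psmb9, Tapbp and B2m were the 3 of 35 members whose RAP values all lay below the control values, and the same 3 were lower in all pairs, against 7.85% and 14.1% of all genes.

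Psmb8, the immunoproteasome subunit whose gene lies between Tap2 and Tap1, had 7.76, 7.27 and 7.98 in the RAP atria, against 8.03, 8.28 and 7.79 in the control atria (change -0.37 ± 0.26, SE, adjusted p = 0.787). RAP 2 was the lowest and control 2 the highest array, and the groups overlapped. Tap1 and Tap2, the subunits of the peptide transporter, changed by -0.21 ± 0.36 and -0.37 ± 0.18, and Psmb10, the remaining immunoproteasome subunit, by -0.15 ± 0.32 (SE, adjusted p = 0.901, 0.734 and 0.922). In pair 2 7 of 7 class I genes were lower with RAP, by 0.32 to 1.35, while pair 3 was divided, with 4 of 7 higher and a median of 0.04.

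Class II genes had the widest spread of all roles, with a median range of 2.30 over the 6 arrays, and 0 of 5 passed the thresholds. In 5 of 5 the RAP atrium was higher in pairs 1 and 3 and lower in pair 2, an order seen in 9.34% of all genes, and control 2 was the highest array of 5 of 5. The pair medians were 0.80, -2.30 and 0.93. RT1-Da, the alpha chain of the RT1-D class II molecule, had 9.92, 8.37 and 10.08 in the RAP atria, against 9.12, 10.94 and 8.95 in the control atria. The ends of its range were the atria of pair 2, and the groups overlapped. The change was -0.21 ± 0.78 (SE, 95% interval -2.25 to 1.83, adjusted p = 0.953), an interval that spans large changes in either direction.

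RT1-Bb and RT1-Ba, the beta and alpha chains of the RT1-B class II molecule, are neighbouring genes. RT1-Bb had 8.21, 7.69 and 8.87 in the RAP atria, against 6.06, 10.13 and 7.32 in the control atria, the widest range of all members (4.07). RAP values stood between control 2 above and controls 1 and 3 below, with means of 8.26 ± 0.59 in RAP and 7.84 ± 2.08 in control atria (SD, n = 3 each) and a change of 0.42 ± 0.95 (SE, adjusted p = 0.927). RT1-Ba had 8.04, 6.90 and 8.29 in the RAP atria, against 7.21, 9.20 and 7.37 in the control atria (change -0.18 ± 0.70, SE, adjusted p = 0.956). Its lowest array was RAP 2, whereas that of RT1-Bb was control 1.

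Cd74, the invariant chain and the brightest class II gene, had 11.53, 10.49 and 11.04 in the RAP atria, against 10.81, 12.10 and 10.63 in the control atria. Its order over the arrays followed that of RT1-Da in pair 2, with control 2 highest and RAP 2 lowest, and its change was -0.16 ± 0.49 (SE, 95% interval -1.45 to 1.12, adjusted p = 0.942). Ciita, the master regulator of class II genes, was dim, at 5.27, 4.997 and 5.20 in the RAP atria, against 4.98, 5.68 and 4.96 in the control atria, with the same signs over the pairs. Without pair 2, Cd74, RT1-Da, RT1-Ba and RT1-Bb rose with RAP by 0.56, 0.97, 0.88 and 1.85 on the log2 scale (4 of 35 members, against 1.53% of all genes), so that the direction of this class turned with pair 2.

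**Figure D2:**
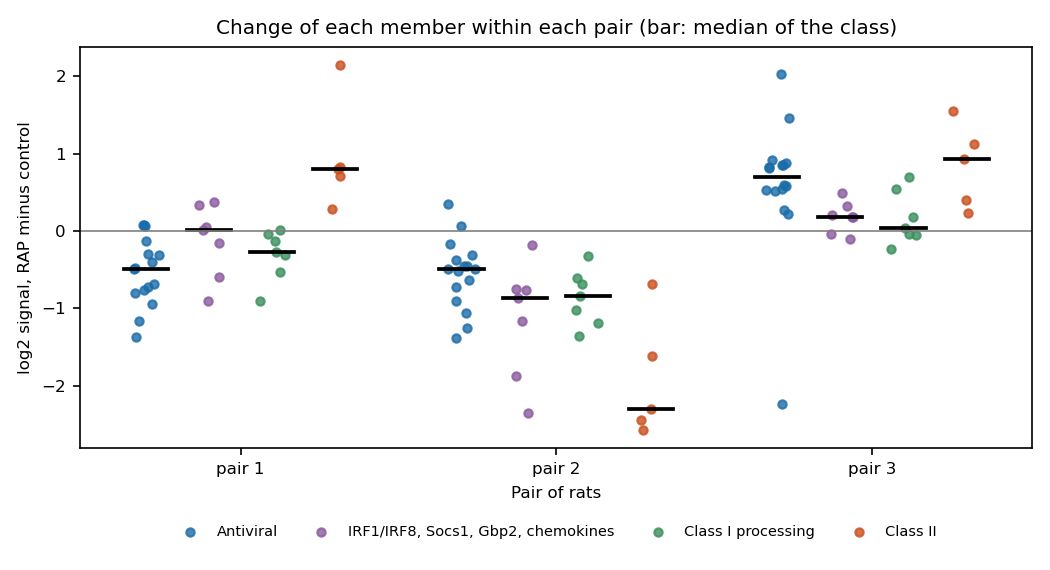
Difference in log2 signal, RAP minus control, of each of the 35 genes (points) within pairs 1, 2 and 3, by role, with the median of each role. Antiviral genes lie mostly below 0 in pairs 1 and 2 and above 0 in pair 3, and the 5 class II genes above 0 in pairs 1 and 3 and below 0 in pair 2.

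The roles thus differed in which atria were high. The mean deviation of the 16 antiviral genes from their own means was -0.16, -0.76 and 0.70 in RAP 1 to 3, against 0.36, -0.21 and 0.09 in controls 1 to 3. For the 5 class II genes it was 0.25, -0.66 and 0.35 in RAP 1 to 3, against -0.71, 1.26 and -0.50 in controls 1 to 3. Control 1 was thus above the mean for antiviral genes and below it for class II genes, and control 2 the reverse, while RAP 2 was low for both. Class I processing lay at -0.11, -0.41 and 0.02 in the RAP atria, against 0.20, 0.45 and -0.14 in the control atria, and the IRF1 arm at -0.05, -0.48 and -0.02, against 0.08, 0.66 and -0.19. In both, as in class II, control 2 was the highest array and RAP 2 was low.

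Markers of the cells that make class II molecules varied over the same atria. The 19 macrophage markers had mean deviations of -0.36, -0.62 and 0.25 in the RAP atria, against 0.11, 1.06 and -0.44 in the control atria. In pair 2 19 of 19 were lower with RAP and in pair 3 17 of 19 were higher, as with the class II genes, whereas in pair 1 18 of 19 were lower, opposite to the 5 class II genes. Over all 87 measured markers, 3 rose and 2 fell, against 2.87% and 3.28% of all genes. Vsig4, a complement receptor of resident macrophages (-1.503 ± 0.497), and Lcn2, a neutrophil protein (-2.60 ± 0.80), fell, and the T and NK cell protease Gzmb rose (0.42 ± 0.15), as did Myh6 and Ttn of the muscle (SE, adjusted p = 0.723 each). Lcn2 and Gzmb do not stand for their lists, and Vsig4 does so only in part. The changes of 18 of the 19 macrophage markers lay below 0, but of these only Vsig4 passed the thresholds. Vsig4 was lower with RAP in pair 3 too (-0.36), where 17 of 19 were higher. Of the 8 measured neutrophil markers, 3 changes lay above 0 and 5 below, and 7 were higher with RAP in pair 3. Of the 12 T and NK cell markers, 6 changes lay above 0 and 6 below. Their mean differences in pairs 1 to 3 were 0.53, -0.73 and 0.11, with the same signs as the class II genes. Singly, 4 of the 12 had that order, against 9.34% of all genes. Of the 8 dendritic cell markers with a probe set, Clec9a and Cd209a stayed under a log2 signal of 5, and the other 6 had summed signals of 38.5 to 39.6 in the RAP atria, against 38.8 to 39.8 in the control atria. Within that narrow sum, markers ran in opposite directions. Clec10a, a lectin also of macrophages, had 8.22, 7.15 and 8.77 in the RAP atria, against 8.26, 9.64 and 7.62 in the control atria, highest in control 2 and lowest in RAP 2 like Cd74. Flt3, a growth factor receptor, had 7.92, 7.81 and 7.19 in the RAP atria, against 8.41, 6.07 and 8.08 in the control atria, where control 2 was the lowest. The B cell marker Ms4a1 stayed under 5 as well, and the other 3 had sums of 16.2 to 17.2 in the RAP atria, against 16.1 to 16.9 in the control atria. The 8 fibroblast markers, at -0.19, -0.55 and 0.20 in the RAP atria against 0.25, 0.58 and -0.29 in the control atria, were also highest in control 2 and lowest in RAP 2. Muscle ran the other way. Of the 11 cardiomyocyte markers, 11 were higher with RAP in pairs 1 and 2 and 6 in pair 3, 10 were highest in RAP 2, and the sums were 136.1 to 139.9 in the RAP atria, against 132.4 to 136.2 in the control atria. Myh6, the alpha myosin heavy chain, and Ttn (titin) changed by 0.46 ± 0.17 and 0.81 ± 0.26 (SE). The part of each cell type in the values of the members was not tested.

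**Figure D3:**
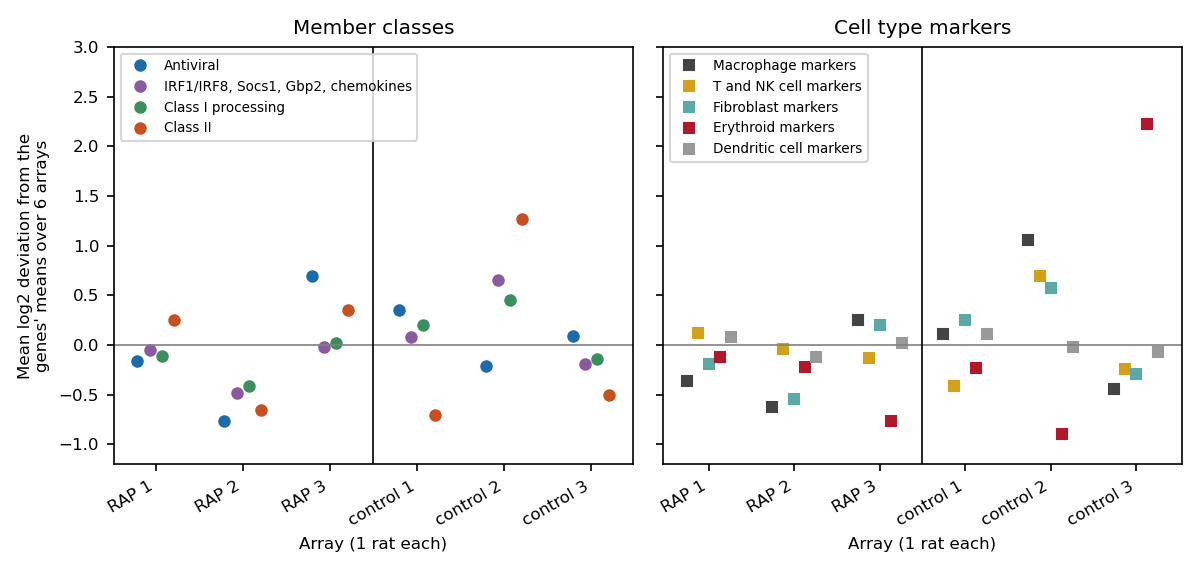
Mean deviation, in log2 units, of the genes of each role (left, circles) and of the markers of 5 cell types (right, squares) on each array (horizontal axis, RAP 1 to 3 left of control 1 to 3), each gene being taken relative to its mean over the 6 arrays. Antiviral genes peak in RAP 3 (0.70), class II genes in control 2 (1.26), as do the macrophage markers (1.06), and erythroid markers in control 3 (2.23).

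Around these members, 77 of 109 other genes of the same pathways were measured, a list written from textbook knowledge. Among them 0 rose and 4 fell with RAP, against 2.87% and 3.28% of all genes. The 4 were Ifitm1, Ifitm2 and Ifitm3, membrane proteins that hinder the entry of viruses into cells, and Gbp5, a GTPase of the Gbp2 family. Ifitm1 had 9.54, 9.56 and 9.50 in the RAP atria, against 9.98, 10.49 and 10.12 in the control atria. The RAP values were nearly equal and all below the control values, and the change was -0.67 ± 0.16 (SE, 95% interval -1.08 to -0.25, unadjusted p = 0.00959, adjusted p = 0.723).

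Ifitm2 had 10.49, 10.38 and 10.36 in the RAP atria, against 10.74, 11.07 and 10.91 in the control atria (-0.50 ± 0.15, SE, adjusted p = 0.723). Ifitm3 had 11.58, 11.30 and 11.55 in the RAP atria, against 11.96, 11.69 and 12.02 in the control atria (-0.42 ± 0.13, SE, adjusted p = 0.723). Gbp5 had 7.68, 7.13 and 7.58 in the RAP atria, against 8.20, 8.27 and 7.90 in the control atria (-0.66 ± 0.20, SE, adjusted p = 0.723). All 4 were lower in each pair with no overlap between the groups, which the call on the same arrays favours. Among the 77 other pathway genes, 6 had all RAP values below all control values, against 7.85% of all genes. Lower in all pairs were 11 of the 77, against 14.1% of all genes. The Ifitm genes resemble each other in sequence, so that their probe sets may share signal and are not independent. By the methods' t-test, Ifitm1 and Ifitm3 passed the thresholds and Ifitm2 and Gbp5 did not.

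**Figure D4:**
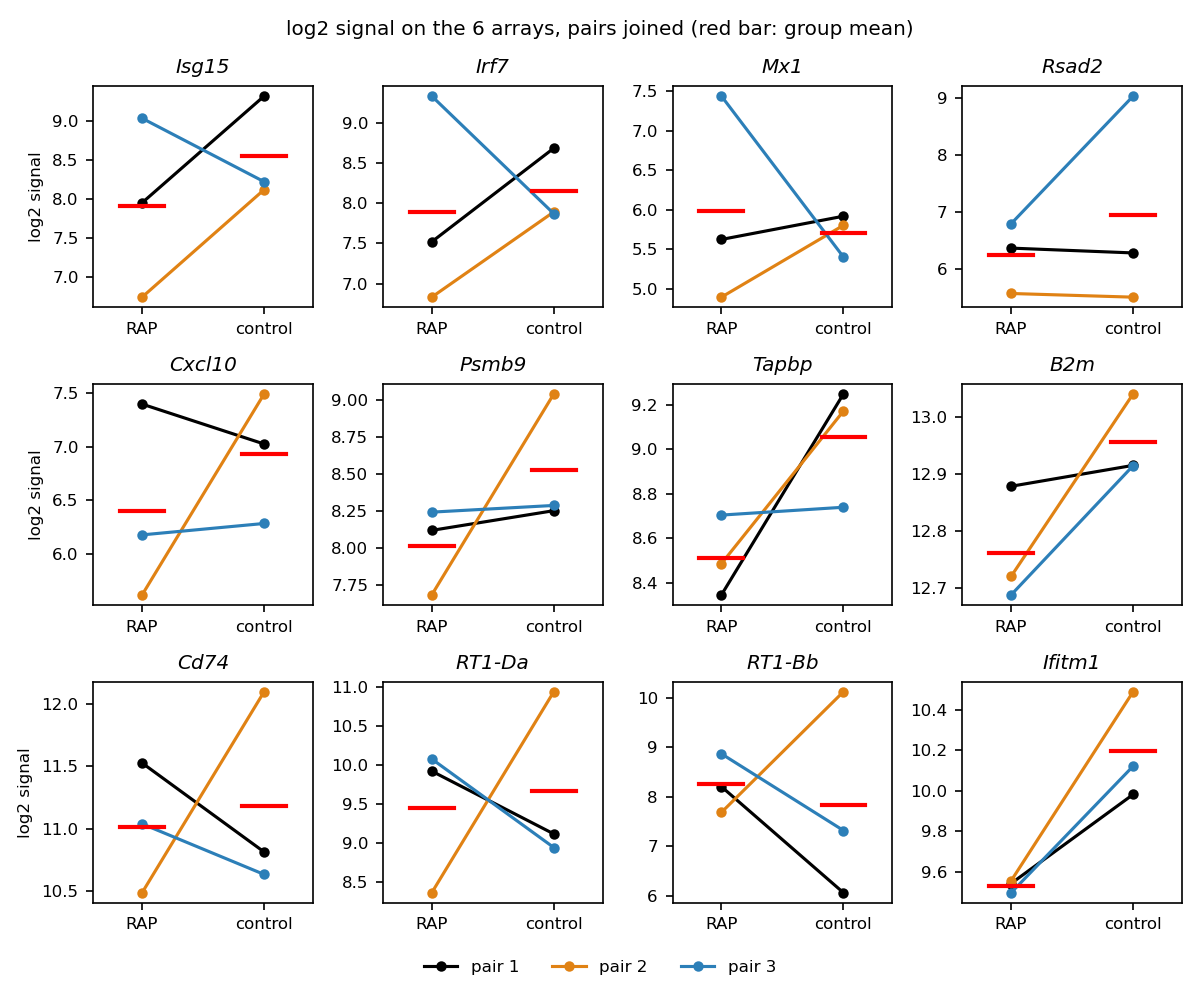
Log2 signal of 11 members and of Ifitm1, RAP left of control, with 1 point per rat, lines joining the rats of a pair, red bars for the group means and a separate vertical scale for each gene, none starting at 0. Isg15, Irf7 and the class II genes overlap widely between the groups, Tapbp barely separates, and Ifitm1 lies at 9.50 to 9.56 in RAP and 9.98 to 10.49 in control atria.

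Upstream, the interferon genes Ifng and Ifnb1 stayed under a log2 signal of 5 on all arrays, at 3.49 to 3.83 and 3.44 to 3.74. Of the receptor chains, Ifnar1 (type I) had 8.51, 8.22 and 8.64 in the RAP atria, against 9.05, 9.14 and 8.59 in the control atria, and a change of -0.47 ± 0.22 (SE, adjusted p = 0.727). Ifngr2 (interferon gamma) had 8.72, 8.65 and 8.65 in the RAP atria, against 9.25, 9.42 and 8.70 in the control atria, lower in each pair but short of the thresholds (-0.45 ± 0.19, SE, adjusted p = 0.723). Ifngr1, Jak1 and Jak2 changed by -0.04 ± 0.16, -0.09 ± 0.14 and -0.57 ± 0.45 (SE). Ifnar2, Tyk2 and Ifna1 had no probe set under their symbol alone and were not analysed here.

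The wider pathway was also mostly lower with RAP in pairs 1 and 2 and mostly higher in pair 3, with 13 of 77 genes higher with RAP in pair 1, 9 in pair 2 and 58 in pair 3, and medians of -0.31, -0.69 and 0.24. The order lower, lower, higher was present in 48 of 77, against 21.7% of all genes. The 15 other genes of class II presentation, however, had pair medians of -0.10, -0.84 and 0.30. At the median they shared with the 5 class II members the low pair 2 but not the high pair 1. The list was divided. The order of the class II members was seen in 4 of the 15, against 9.34% of all genes, among them RT1-Db1 (0.32, -1.90 and 0.33). The order lower, lower, higher was seen in 9 of the 15.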

How the data were processed

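The authors made the deposited log2 values from GeneChip Rat Gene 1.0 ST arrays in Partek Genomics Suite (version not given in the sources used here) by robust multiarray averaging with default settings, which subtracts background, equalizes the arrays by quantiles and summarizes each probe set. Quantile scaling hides a shift shared by most genes. Of 29214 probe sets, 15310 carried 1 symbol in the array's annotation, 323 several and 13581 none. Probe sets above a log2 signal of 5 on at least 1 array were kept (19907), and where a gene had several, the brightest on average stood for it (11237 genes). All 35 measured members had the same symbol in the current rat gene list.

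The RAP and control arrays were fitted by limma 3.58.1 in R 4.3.3, with the pair as a block (2 residual and 2.72 prior degrees of freedom) over all 11237 genes, and p-values were adjusted over all of them by the Benjamini-Hochberg method. The fit was tested on simulated data. With 3 arrays per group, their number limits the precision. The pairs come from the sample labels and the study's methods. The deviations of paired arrays from their group means correlated at 0.22, -0.24 and -0.32.

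The members, the lists of other pathway genes and the cell type markers were chosen with earlier results of these data known. Values on every array were given for the 3 brightest members of each role and the 3 with the largest change, and for other pathway genes past the thresholds. Alternatives were a fit with no replicate block, the methods' t-test, variance trend with robust moderation, no filter, a filter at 6 on at least 3 arrays, the mean of a gene's probe sets, median centring, further quantile normalization, and leaving out each pair or array. A fit over all kept probe sets was added after seeing the data. Promoters are RefSeq's (GRCr8).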

Additional observations from a re-analysis of the deposited data

How the results depend on the processing

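Neither the methods' t-test nor a variance trend with robust moderation, a filter at 6 on at least 3 arrays, the mean of a gene's probe sets, median centring, further quantile normalization or a fit over all kept probe sets (chosen after seeing the data) called any member tested, which were 35, or 31 under the filter at 6 (without Mx1, Cxcl9, Cxcl11 and Ciita). Without a filter 1 member fell, Tapbp. With no replicate block, in place of the paired fit, 2 members fell (Gbp2 and Tapbp) and 5 of the other pathway genes, and by the methods' t-test 2 of those (Ifitm1 and Ifitm3). Sets without 1 array were fitted with no pair block.

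Leaving out a pair or an array moved these results most. The number of members that fell ran from 0 to 16 and of those that rose from 0 to 4, while among the other pathway genes 1 to 32 fell. The 16 fell without pair 3 and the 4, all class II, rose without pair 2. The change took both signs over these fits in 25 of 35 members. Those called with a sign opposite to that over all pairs were Mx1 (-0.601 to 0.871), Cd74 (-0.604 to 0.560), RT1-Da (-0.883 to 0.967) and RT1-Ba (-0.735 to 0.877). Medians ran from -0.59 to 0.14 for antiviral genes, from -0.73 to 0.01 for the IRF1 arm, from -0.59 to -0.09 for class I processing and from -0.60 to 0.88 for class II genes. Ifitm1 kept its call throughout (-0.78 to -0.52). Ifitm2, Ifitm3 and Gbp5 remained below 0. Ifitm2 and Ifitm3 missed the thresholds whichever pair was left out, and Gbp5 missed them without pair 1 and without pair 2. Ifitm3 also missed them without RAP 2, without control 1 and under further quantile normalization (-0.358).

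With 3 pairs, the 95% intervals of Cd74, RT1-Da, RT1-Ba and RT1-Bb reach past 1 log2 unit in both directions. So do those of the antiviral genes Irf7 (-1.75 to 1.25) and Mx1 (-1.29 to 1.84). Signals under 5, as of Ifng and Ifnb1, are near the array's background. Among genes described above, this holds for Mx1 (4.90) and Cxcl9 (4.76) in RAP 2 and for the marker Vsig4 in RAP 1 (4.60). It also holds for Ciita in RAP 2 (4.997), control 1 (4.98) and control 3 (4.96).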

Other observations

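A pair of genes outside the members, chosen after their values were seen, had levels that fell into a low and a high set of arrays without regard to group. Oas1k, of the oligoadenylate synthetase family, had log2 signals of 5.56, 7.28 and 7.601 in the RAP atria, against 5.88, 7.42 and 5.58 in the control atria. RT1-CE5, a class I gene of the RT1 complex, had 7.75, 8.40 and 8.42 in the RAP atria, against 7.56, 9.03 and 7.66 in the control atria. For both, RAP 2, RAP 3 and control 2 were high and RAP 1, control 1 and control 3 low.

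Isg20, an interferon-induced exonuclease, was also chosen after its values were seen. It had 6.74, 6.62 and 6.74 in the RAP atria, against 7.40, 6.42 and 7.40 in the control atria, so that it was lower with RAP in pairs 1 and 3 and higher in pair 2, opposite in every pair to the 5 class II members.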
